A study of Vitis labrusca x Vitis vinifera with 9 samples.

Results

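In dormant grapevine buds, 47 of the 30128 genes on the array lay at least 2-fold below the water control after hydrogen cyanamide (HC) and at least 2-fold above it once the cane had been pruned, either after pruning alone (P) or after pruning plus hydrogen cyanamide (PHC). They were chosen on M, the log2 ratio of treated to control signal, with a mean M of at most -1 over the 3 HC arrays, a mean M of at least 1 over the 3 P arrays or the 3 PHC arrays, and a control signal well above background on all 3 HC arrays. Of the 47 genes, 10 qualified through both P and PHC, 13 through P alone and 24 through PHC alone. A further 19 genes met the limits on M but their control signal was not well above background on every HC array, and they were left out. All 3 comparisons were used in the choice, so the M values of these genes are given as a description, without a test.

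The buds were those at the 8th node from the base of mature canes of 5-year-old vines (Vitis labrusca x Vitis vinifera), taken in late August and, by the study's methods, 24 h after treatment, from 10 single nodes per treatment and replication. P canes were cut beside the node, HC buds were sprayed with 1% hydrogen cyanamide, PHC buds received both, and control buds were sprayed with water on uncut canes. The methods describe the HC canes as not pruned while the sample labels list them as pruned, and this could not be settled from the files. Each of the 9 arrays, 3 per treatment, held treated RNA in Cy5 and control RNA in Cy3, the dyes were swapped on 0 arrays, and nothing states whether replicates came from separate vines.

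Hydrogen cyanamide is a rest-breaking agent of viticulture, and cutting the cane removes the distal buds and exposes the remaining bud to wounding. When a bud resumes growth its cell walls are loosened, extended and later stiffened. Xyloglucan endotransglycosylases cut and rejoin the xyloglucan chains that tether cellulose, polygalacturonases cleave pectin, and class III peroxidases and dirigent proteins act on the coupling of phenolics in the wall, peroxidases using or producing hydrogen peroxide. The files held no sequence of these gene models, so none is shown.

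Over the 47 genes the median of the mean M was 0.99 in P buds, -1.29 in HC buds and 1.27 in PHC buds, beside medians of -0.05, -0.05 and -0.11 over the 24319 genes detected in control buds on the HC arrays. Means over the arrays ranged from 0.13 to 3.14 for P, from -2.26 to -1.01 for HC and from -1.0 to 4.40 for PHC. On single HC arrays the genes did not all behave as their mean did. HC replicate 3 held 42 of the 47 at or below -1, HC replicate 1 held 33 and HC replicate 2 held 20, beside 11.8, 7.92 and 5.66% of all detected genes on the same arrays. All 47 were below 0 on HC replicate 3, 46 on HC replicate 1 and 44 on HC replicate 2. The lowest of the 3 HC values was that of replicate 3 in 23 genes, and the highest was that of replicate 2 in 28. In the heat map of all 47 genes this shows as a pale middle column among the HC arrays.

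**Figure D1:**
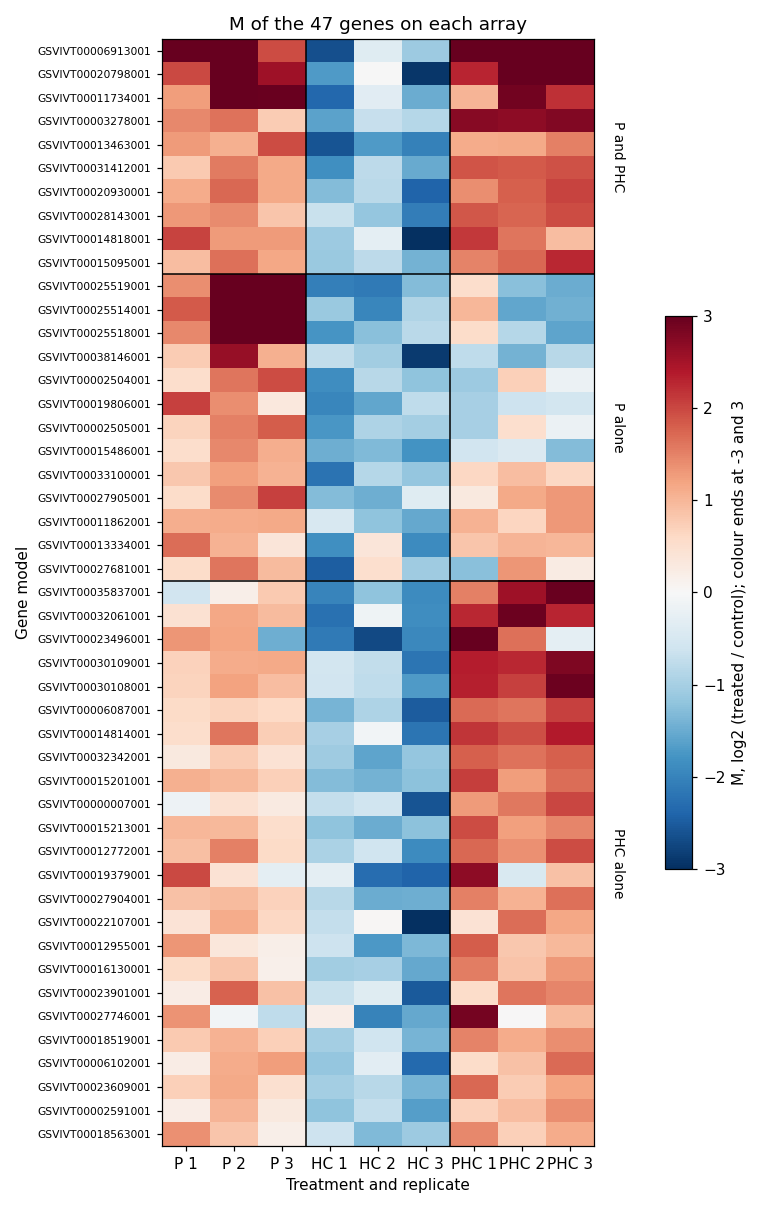
M of each of the 47 genes (rows, gene model identifiers) on each of the 9 arrays (columns, treatment and replicate), with red for treated above control and blue for treated below it. Rows are grouped by the treatment through which a gene qualified, and the HC columns are blue for 46, 44 and 47 of the 47 genes on replicates 1, 2 and 3.

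Between treatments the difference lay mostly in the treated channel. With each channel centred on its array median, the Cy3 signal of the 47 genes was higher on the HC arrays than on the P arrays by a median of 0.06 on the log2 scale (0.03 over all detected genes) and higher than on the PHC arrays by 0.04 (0.04 over all detected genes). Their Cy5 signal was lower on the HC arrays than on the P arrays by a median log2 difference of -2.11, and than on the PHC arrays by -2.52, and in all 47 the mean Cy5 signal of the HC arrays lay below that of the P and of the PHC arrays, as the choice of genes favors. The control signal of single genes was less even, and the highest of the 9 centred Cy3 signals was a median of 2.10 times the lowest (1.15 to 11.1 times). Fewer cells of a type and less RNA per cell cannot be told apart in such whole-bud RNA.

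The spots were dim. Control Cy3 signals had a median of 205 units (49.3 to 4256) over the 47 genes and of 1408 over all detected genes, and 23 of the 47 lay under 200. Spot brightness depends on the probe as well as on the transcript. Within an array the 47 stood at a median percentile of 33.9 of all probes, 33 lay below the 50th and 0 reached the 90th. On the HC arrays the Cy5 signal was well above background on all 3 arrays for 32 genes, on 2 for 8 and on 1 for 7, so for 15 genes part of the HC value rests on a signal not well above background. No spot of the 47 genes was marked as an outlier.

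**Figure D2:**
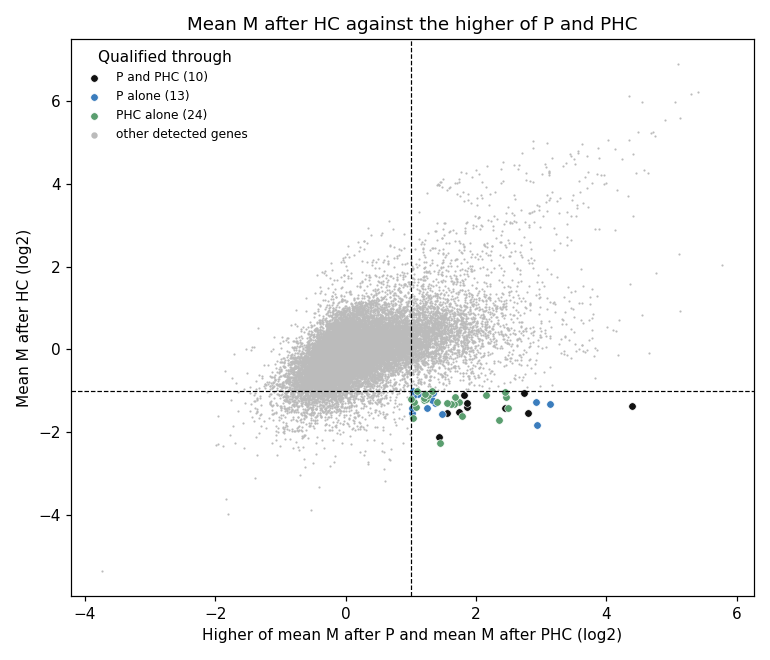
Mean M after HC (vertical axis, log2) against the higher of the mean M after P and after PHC (horizontal axis, log2) for every gene detected on the HC arrays, with dashed lines at the limits of -1 and 1. The 47 genes are colored by the treatment through which they qualified, and 10, 13 and 24 qualified through both, P alone and PHC alone.

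The limits cut through a continuous cloud. Just inside the HC limit were an ACT domain-containing protein (GSVIVT00018519001) with a mean M after HC of -1.01 and GSVIVT00018563001 with -1.01, and just outside were GSVIVT00037988001 and GSVIVT00021631001, both with -0.99. Just inside the other limit were a leucine-rich repeat protein (GSVIVT00002591001) with 1.00 after PHC and a peroxidase 64 gene (GSVIVT00015486001) with 1.02 after P. Just outside were GSVIVT00015367001 with 0.995 and GSVIVT00014541001 with 0.99, both after PHC.

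Of the 47 genes, 13 had an informative name from the Arabidopsis homolog or the study's tables, 5 more had a homolog accession, and 27 carried a GO identifier. The 13 are described below, grouped by function and beginning with the cell wall.

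The gene with the widest gap between treatments was a putative xyloglucan endotransglycosylase (GSVIVT00006913001, homolog AT1G11545). M was 3.47, 3.15 and 1.96 on the P arrays, -2.63, -0.36 and -1.08 on the HC arrays and 5.3, 3.61 and 4.29 on the PHC arrays. The mean was 2.86 ± 0.80 in P buds, -1.36 ± 1.16 in HC buds and 4.40 ± 0.85 in PHC buds (SD, n = 3 each). The 3 treatments did not overlap, and HC replicate 2 was nearest to the control. On the HC arrays the Cy5 signals were 107, 165 and 67.2 beside Cy3 signals of 661, 211 and 142, and on the PHC arrays they were 6981, 3847 and 11800 beside 177, 315 and 605. The control signal of this gene stood 1.23 higher (log2, array-centred) on the HC than on the P arrays. The part of this in the ratio was not tested.

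Xyloglucan endotransglycosylases were read beside the other expansins, extensins and xyloglucan endotransglucosylases, found by their names. Of 17 tested outside the 47 genes, 5 were higher after P and 0 lower, 4 were higher after HC and 0 lower, and 6 were higher after PHC and 1 lower, with limma, a change of at least 2-fold and an adjusted p (Benjamini-Hochberg) under 0.05. Over all 26395 tested genes 2.75% were higher and 0.572% lower after P, 5.16% higher and 4.75% lower after HC, and 13.5% higher and 11.7% lower after PHC. The medians of the 17 were 0.10, 0.15 and 0.33 after P, HC and PHC, beside -0.03, -0.03 and -0.07 over all tested genes. Without P replicate 2 the count higher after P was 3. Of the 17, 5 stand in the study's tables, which were chosen on these samples and are not independent evidence. One putative xyloglucan endotransglycosylase (GSVIVT00033487001), singled out after its values were seen, missed the HC limit. Its M was 1.17, 1.94 and 1.37 on the P arrays, -0.56, -0.32 and -1.59 on the HC arrays and 0.77, 1.49 and 1.35 on the PHC arrays (limma, adjusted p = 0.00937, 0.036 and 0.00351).

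The wall-related GO terms held a second gene. GSVIVT00031412001, which carries the GO term for the cell wall and no name, had M of 0.77, 1.56 and 1.13 on the P arrays, -1.84, -0.78 and -1.52 on the HC arrays and 1.88, 1.83 and 1.90 on the PHC arrays. Its PHC arrays differed by less than its HC arrays (SD 0.04 and 0.54, n = 3 each) and lay above all P arrays.

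A pair of genes named peroxidase 64, class III peroxidases of the wall, were among the 47, with M on opposite sides of the control after PHC. GSVIVT00011734001 had M of 1.25, 3.13 and 2.96 on the P arrays, -2.37, -0.34 and -1.50 on the HC arrays and 1.02, 2.90 and 2.20 on the PHC arrays. Its means were 2.45 ± 1.04, -1.40 ± 1.02 and 2.04 ± 0.95 (SD, n = 3). On every P and PHC array it was above 1, and on every HC array below 0. Replicate 1 was the lowest array of each treatment, and the Cy3 signal on the arrays of that number was 520 (P), 642 (HC) and 1094 (PHC), against 121 to 371 on the other 6 arrays. The Cy3 signal of this gene, not centred on the array median, was thus highest on the arrays of number 1. The part of this in the ratios was not tested.

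The second, GSVIVT00015486001 (homolog AT5G42180), had M of 0.52, 1.44 and 1.09 on the P arrays, -1.47, -1.32 and -1.79 on the HC arrays and -0.56, -0.43 and -1.30 on the PHC arrays. It lay above the control after pruning alone and below it wherever hydrogen cyanamide had been applied, with means of 1.02 ± 0.46, -1.53 ± 0.24 and -0.77 ± 0.47 (SD, n = 3). Cy5 exceeded background clearly on 2 of its 3 HC spots.

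Among 40 further class III peroxidases tested, 6 were higher and 1 lower after P, 8 higher and 11 lower after HC, and 14 higher and 10 lower after PHC (limma, same limits and background shares as above). Their medians were 0.20, -0.17 and -0.04 after P, HC and PHC. Of the 40, 31 stand in the study's tables, which were chosen on these samples. The count higher after P was 1 without P replicate 2 and 2 without P replicate 3, the count higher after HC was 4 without HC replicate 1 and 5 without HC replicate 2, and with normexp and loess 3 were lower after HC. A detected peroxidase lower after HC and outside the 47 has, by the limits, no mean of 1 or more after P or PHC. Examples from among these follow, picked by no rule set beforehand. Peroxidase 47 (GSVIVT00003644001) had mean M of 0.22 in P buds, -1.88 in HC buds and 0.07 in PHC buds, with adjusted p = 0.435, 0.000112 and 0.765 (limma). Peroxidase 25 (GSVIVT00016899001) had -1.35, -2.55 and -2.41, with adjusted p = 0.00575, 5.8e-05 and 2.1e-05 (limma).

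A dirigent family protein (GSVIVT00002504001, homolog AT4G23690) had M of 0.53, 1.61 and 1.96 on the P arrays, -1.86, -0.83 and -1.22 on the HC arrays and -1.09, 0.71 and -0.18 on the PHC arrays. Its means were 1.37 ± 0.75 in P buds, -1.30 ± 0.52 in HC buds and -0.19 ± 0.90 in PHC buds (SD, n = 3), so that after PHC its arrays lay on both sides of the control. Dirigent proteins guide the stereoselective coupling of phenoxy radicals. The other 6 genes of the list of Casparian strip, suberin and dirigent proteins, all of them dirigent proteins, behaved otherwise after HC: 5 were higher and 0 lower, 5 were higher after P and 6 after PHC (limma, as above), with medians of 1.39, 2.99 and 3.69 after P, HC and PHC. Of these 6, 5 stand in the study's tables. The count higher after P was 3 without P replicate 2 and 2 without P replicate 3.

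The steepest values after P alone belonged to 3 genes that have no name and carry the GO term for polygalacturonase activity, GSVIVT00025514001, GSVIVT00025518001 and GSVIVT00025519001. They were singled out after their values were seen. GSVIVT00025519001 had M of 1.40, 4.04 and 3.36 on the P arrays, -2.06, -2.12 and -1.31 on the HC arrays and 0.54, -1.26 and -1.49 on the PHC arrays. GSVIVT00025514001 had a mean M of 3.14 ± 1.19 in P buds, -1.32 ± 0.56 in HC buds and -0.67 ± 1.45 in PHC buds, and GSVIVT00025518001 had 2.92 ± 1.30, -1.28 ± 0.49 and -0.63 ± 1.08 (SD, n = 3). In each of the 3, P replicate 1 was the lowest P array and PHC replicate 1 was the only PHC array above 0. Their HC side is faint. The Cy5 signal of GSVIVT00025519001 was 48.5, 22.5 and 24.9 on the HC arrays beside Cy3 signals of 202, 98.1 and 61.9, and that of GSVIVT00025514001 was well above background on 1 HC and 1 PHC array. Among the 39 other detected genes with this GO term, the median M was -0.31 (-0.72 to 2.72) in P buds, -0.22 (-1.68 to 3.23) in HC buds and -0.42 (-1.86 to 4.41) in PHC buds.

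The 3 named genes of metabolism had their highest means after PHC. A prephenate dehydrogenase family gene (GSVIVT00003278001, homolog AT1G15710), of a family that makes tyrosine, had M of 1.43, 1.64 and 0.77 on the P arrays, -1.59, -0.70 and -0.85 on the HC arrays and 2.73, 2.69 and 2.78 on the PHC arrays. Its PHC arrays agreed to 0.04 (SD, n = 3) and all lay above its P arrays. A lecithin:cholesterol acyltransferase family gene (GSVIVT00022107001), of lipid acyl transfer, had M of 0.41, 1.10 and 0.61 on the P arrays, -0.71, 0.05 and -3.49 on the HC arrays and 0.44, 1.67 and 1.15 on the PHC arrays. Its HC mean of -1.39 ± 1.86 (SD, n = 3) came from replicate 3, since replicate 2 was above the control, and Cy5 exceeded background clearly on 2 of its 3 HC spots. The ACT domain-containing protein, of a domain that often binds amino acids, had means of 0.85 ± 0.18 in P buds, -1.01 ± 0.40 in HC buds and 1.33 ± 0.20 in PHC buds (SD, n = 3).

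A selenium-binding gene (GSVIVT00032342001, homolog AT4G31360) varied little between arrays and was one of the brighter spots, with a median Cy3 signal of 2394. Its M was 0.28, 0.77 and 0.42 on the P arrays, -1.07, -1.58 and -1.16 on the HC arrays and 1.80, 1.63 and 1.79 on the PHC arrays. A glutaredoxin family gene (GSVIVT00019806001, homolog AT5G18600), of the glutathione-dependent disulfide oxidoreductases, had M of 2.05, 1.39 and 0.31 on the P arrays, -1.95, -1.56 and -0.76 on the HC arrays and -1.0, -0.62 and -0.54 on the PHC arrays. As with the second peroxidase 64 gene, it was above the control on every P array and below it on every HC and every PHC array.

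Genes of signaling and development followed. A gene related to dem (defective embryo and meristems, GSVIVT00014814001, homolog AT4G33400), named in tomato for its need in meristem organization, had M of 0.52, 1.60 and 0.74 on the P arrays, -1.0, -0.08 and -2.19 on the HC arrays and 2.15, 1.93 and 2.37 on the PHC arrays. All PHC arrays lay above all P arrays, and HC replicate 2 was near the control. A putative rac GTPase activating protein (GSVIVT00023609001), which switches off small GTPases, had means of 0.78 ± 0.33 in P buds, -1.08 ± 0.29 in HC buds and 1.23 ± 0.47 in PHC buds. A C3HC4-type RING finger gene (GSVIVT00016130001), of a class that includes many ubiquitin ligases, had 0.52 ± 0.34, -1.19 ± 0.31 and 1.23 ± 0.34, and the leucine-rich repeat gene GSVIVT00002591001 had 0.51 ± 0.45, -1.19 ± 0.46 and 1.00 ± 0.35 (SD, n = 3). None of these 3 had an HC array above the control. Cy5 exceeded background clearly on 1 of the 3 HC spots of the RING finger gene and on 2 of the 3 of the dem-related gene, so the size of their HC values is uncertain.

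**Figure D3:**
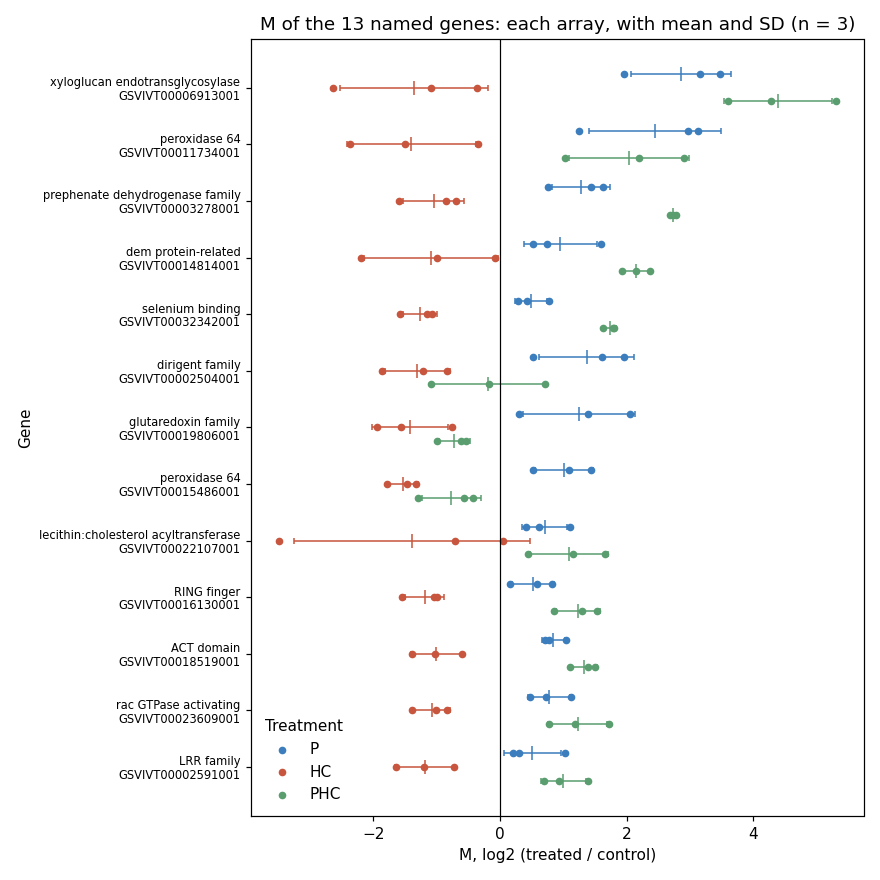
M (horizontal axis, log2 of treated over control) of the 13 named genes on each P, HC and PHC array (points), with the mean and SD of the 3 arrays (vertical tick and bar). The xyloglucan endotransglycosylase spans -2.63 to 5.3, and the lecithin:cholesterol acyltransferase family gene has 1 HC array at -3.49 and 1 at 0.05.

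Several genes without a name, singled out after their values were seen, lay as far from the control as the named ones. GSVIVT00023496001 (homolog AT3G03190) had the lowest mean after HC, -2.26 ± 0.41 (SD, n = 3), with M of -2.12, -2.72 and -1.94. After pruning its arrays disagreed, with M of 1.32, 1.19 and -1.47 on the P arrays and 3.00, 1.66 and -0.29 on the PHC arrays, replicate 3 being the low one in both. GSVIVT00035837001 was near the control after P, with M of -0.57, 0.19 and 0.78, and had M of -1.99, -1.21 and -1.89 on the HC arrays and 1.52, 2.55 and 2.97 on the PHC arrays. GSVIVT00020798001 had M of 1.99, 3.25 and 2.55 on the P arrays, -1.69, -0.01 and -2.91 on the HC arrays and 2.29, 3.01 and 3.10 on the PHC arrays, so that HC replicate 2 was at the control level. GSVIVT00013463001, of unknown function (homolog AT2G23690), was at -2.60, -1.70 and -2.03 on the HC arrays, with a Cy5 signal well above background on 1 of them, and had means of 1.43 ± 0.47 after P and 1.26 ± 0.22 after PHC (SD, n = 3).

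In 6 groups, holding 13 of the 47 genes, the identifier numbers lay within 12 of each other, and values within some groups were nearly the same. The dirigent gene and GSVIVT00002505001 differed by at most 0.20 in M on any of the 9 arrays, and GSVIVT00015201001 and GSVIVT00015213001 by at most 0.20. Next to this last pair, GSVIVT00015200001 and GSVIVT00015212001, which are not among the 47 because their highest mean was under 1, differed by at most 0.25 and had mean M of -1.57 and -1.52 after HC. GSVIVT00030108001 and GSVIVT00030109001 differed by a median of 0.11 over the 9 arrays, with mean M of 2.44 and 2.47 after PHC. The polygalacturonase-term genes also had a neighbor by number that missed the HC limit, GSVIVT00025516001, with mean M of 2.34 in P buds, -0.89 in HC buds and -0.59 in PHC buds. Other pairs were less alike: GSVIVT00027904001 and GSVIVT00027905001 differed by up to 1.36 and the dem-related gene and GSVIVT00014818001 by up to 1.51. Whether such probes can bind the same transcript was not tested, so the 47 probes need not stand for 47 separate transcripts.

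P and PHC, both of which include pruning, were also set side by side, as a description, since both entered the choice. Every PHC array lay above every P array in 17 of the 47 genes (36.2%), beside 23.1% of detected genes, and below every P array in 7 (14.9%), beside 27.3%. The split by route fixes which of P and PHC is higher in the genes that qualified through one alone, so their medians are given for size only. The 13 genes that qualified through P alone had medians of 1.32 after P and -0.23 after PHC, and the 24 that qualified through PHC alone had 0.78 after P and 1.43 after PHC.

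To read the pattern on arrays that had not chosen it, the same limits were applied to the arrays of 2 replicate numbers and the genes were read on the third number. Leaving out number 3 chose 36 genes, of which 35 were below 0 on HC replicate 3 and 25 (69.4%) at or below -1, beside 11.8% of detected genes. Leaving out number 1 chose 78 genes, of which 55 were below 0 and 34 (43.6%) at or below -1 on HC replicate 1, beside 7.91%. Leaving out number 2 chose 87 genes, of which 65 were below 0 and 22 (25.3%) at or below -1 on HC replicate 2, beside 5.66%. The HC side was thus met least often on replicate 2, whose median in the genes chosen without it was -0.50, against -0.73 on replicate 1 and -1.23 on replicate 3. The medians of detected genes on HC replicates 1, 2 and 3 were also below 0, at -0.02, -0.08 and -0.07. The counts below 0 therefore say less than those at or below -1.

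The pruning side was read in the same way. Of the genes chosen through P, 24 of 47 were at or above 1 on P replicate 1, 28 of 31 on P replicate 2 and 14 of 21 on P replicate 3 (51.1, 90.3 and 66.7%), beside 4.45, 4.24 and 2.62% of detected genes. Of those chosen through PHC, 53 of 63, 56 of 77 and 19 of 27 were at or above 1 on PHC replicates 1, 2 and 3 (84.1, 72.7 and 70.4%), beside 14.5, 11.7 and 14.8%. Only 31, 37 and 24 of the genes chosen without numbers 1, 2 and 3 were among the 47, so the membership shifted with the arrays. On each array left out, the limit was still met by a larger share of the chosen genes than of detected genes. Arrays of 1 number may share a control sample, so the HC value and the pruning value read on a number are not independent of each other.

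**Figure D4:**
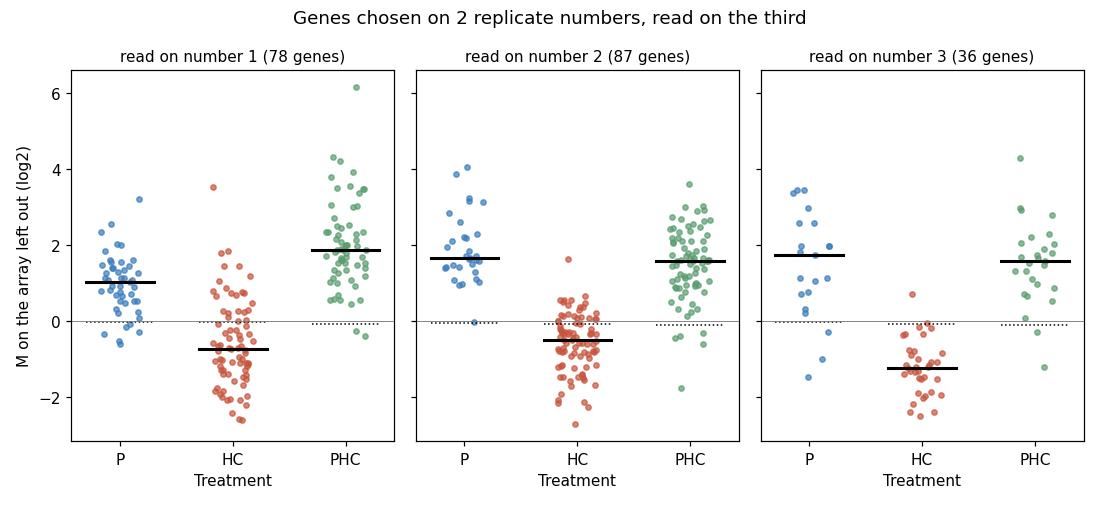
M on the arrays of the replicate number left out (vertical axis, log2) for genes chosen on the other numbers, with P values for the genes chosen through P, HC values for all chosen genes and PHC values for those chosen through PHC. Solid lines are medians of the chosen genes, dotted lines medians of all detected genes, and the HC medians are -0.73, -0.50 and -1.23 on numbers 1, 2 and 3.

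How far these genes lay below the control after HC depended on how background was treated. With normexp background correction, which adds an offset of 50 to both channels, and loess, the median M of the 47 genes was 0.76 in P buds, -0.52 in HC buds and 1.00 in PHC buds, and 5 of the 47 still met the limits. These were GSVIVT00023496001, GSVIVT00035837001, GSVIVT00015201001, GSVIVT00015213001 and the selenium-binding gene, whose median Cy3 signal was 2394. The 13 named genes then had mean M after HC of -1.03 to -0.20, all below 0 and 1 at or below -1. The xyloglucan endotransglycosylase had 1.81 in P buds, -0.65 in HC buds and 3.37 in PHC buds, and the 3 polygalacturonase-term genes had -0.52 to -0.29 after HC. The mean after HC stayed below 0 in all 47 genes under each of the 6 sets of values, as the choice of genes on these same spots favors. Only 3 of the 47 met the limits under all 5 other sets.

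**Figure D5:**
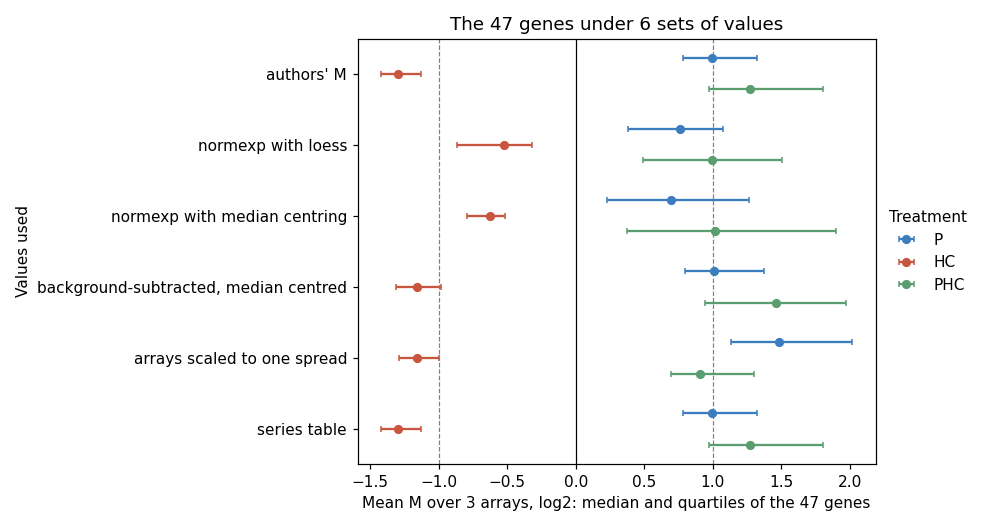
Median and quartiles of the mean M over 3 arrays (horizontal axis, log2) of the 47 genes after P, HC and PHC under 6 sets of values (vertical axis), with dashed lines at -1 and 1. The HC median is -1.29 with the authors' values, -0.52 with normexp and loess and -0.63 with normexp and median centring.

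Tissue markers that the annotation could name gave little. A single histone H4 gene, for dividing tissue, had mean M of 0.75 in P buds, 0.19 in HC buds and 1.27 in PHC buds. In the broader gene lists, the medians after P, HC and PHC were 0.06, 0.12 and 0.37 for 14 cell cycle genes. For 5 histone genes they were 0.77, 0.57 and 0.74. The medians of 5 genes of green tissue were -0.17, -0.35 and -0.06 and of 12 genes of epidermis and cuticle 0.03, -0.04 and 0.12. Peroxidase 64, the name of a pair of the 47 genes, was planned as a marker of periderm and endodermis but was left out of the matching. No other marker of xylem, phloem or periderm was matched by name, and none of the 47 genes was among the markers that were matched. The members named peroxidase 64 were therefore not read as markers of any tissue. Whether any of the 47 genes marks a tissue, and the part of tissue composition in the pattern, was not tested. Of the 27 gene lists, which were matched by name, 24 held none of the 47 genes. Only 13 of the 47 had an informative name, beside 5397 of all 30128 genes, so an empty list does not show that a function is absent. The polygalacturonase-term genes, for example, have no name and fell in no list.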

How the data were processed

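RNA of grapevine buds was measured on 9 two-color Agilent arrays, 3 per treatment. The deposited intensity columns hold linear signals per spot that the authors extracted with Feature Extraction 10.5, as mean, background-subtracted and dye-normalized signal. The deposited log2 values and the ratio column are Cy5 over Cy3 after the authors' background subtraction and rank-consistent LOWESS. The p-value column of the authors' software was not used. Genes were named from the Arabidopsis homolog (6981 of 30128 probes) and the study's tables (438).

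The 47 genes were chosen by the mean of these log2 ratios. Members and gene lists were chosen with earlier results of these data known. The 13 genes named are the members with an informative name (at most 15 by the gap between HC and the higher of P and PHC), those in the study's tables or in a gene list, and those beside the limits. Other genes were fitted with limma 3.58.1 (R 4.3.3, data.table version 1.17.8) over 26395 probes, 81 outlier values left out, 6 residual degrees of freedom, tested on simulated data. P-values measure the spread between these samples, which may be technical. Figures used matplotlib 3.10.9 and pandas 2.3.3 in Python 3.11.15. The number of arrays limits precision. Alternatives were normexp with loess or median centring, background-subtracted ratios, scaling to one spread, the series table, stricter detection, other limits, a replicate block, array weights, and arrays left out.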

Additional observations from a re-analysis of the deposited data

Results flagged for a closer look

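Among the 13 named genes, HC alone and HC on top of pruning lay on opposite sides in 6. In these, all 3 HC arrays were below the control and every PHC array lay above every P array. The same held in 17 of the 47 genes, and in 564 of 24319 detected genes (2.32%). These shares are not alike, since the limits set most of the HC part for the 47. Without the HC part, every PHC array lay above every P array in 36.2% of the 47 and 23.1% of detected genes. A low mean after HC was set by the choice of genes. The selenium-binding, dem-related, RING finger and ACT domain genes qualified through PHC alone, which also fixed a mean after PHC above that after P. The difference itself was not tested, because these genes were chosen on the same values. The mean M of PHC minus that of P was 1.54 for the xyloglucan endotransglycosylase (GSVIVT00006913001), 1.46 for the prephenate dehydrogenase family gene (GSVIVT00003278001), 1.25 for the selenium-binding gene (GSVIVT00032342001), 1.19 for the dem-related gene (GSVIVT00014814001), 0.71 for the RING finger gene (GSVIVT00016130001) and 0.48 for the ACT domain gene (GSVIVT00018519001). Sample labels that list the HC canes as pruned leave the meaning of this contrast unsettled.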

How the results depend on the processing

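The number of genes meeting the limits was 47 with the authors' values, 5 with normexp and loess, 13 with normexp and median centring (3 of them among the 47), 110 with a log2 limit of 0.8, 6 with a limit of 1.5 and 6 when every array had to pass the limit. It was 34 to 94 with 1 HC array left out (94 without HC replicate 1, 81 without HC replicate 2), 44 to 58 with 1 P or PHC array left out, and 36 to 87 with all arrays of 1 number left out. With each of the 9 arrays left out in turn 13 of the 47 always remained.

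The median M of the 47 after P was 0.76 with normexp and loess, 0.69 with median centring and 1.48 with the arrays scaled to one spread, after HC -0.52 and -0.63 with the first 2 of these, and after PHC 1.00, 1.01, and 0.91 with the 3, and 1.46 with background-subtracted ratios. Over the genes that met a limit of 1.5 it was 1.43 after P and 1.76 after PHC, when every array had to pass 1.61 after PHC, and over 32 genes well above background in both channels 1.5 after PHC. Without 1 array it was 0.84 to 1.12 after P, -1.42 to -1.15 after HC and 1.29 to 1.45 after PHC. Over 312 values of named genes under other settings 254 moved by less than 1 SD, and 43 of the 58 that moved further did so under normexp. Of values of at least 1 in size 0 turned their sign, and of smaller ones 4 did: with normexp and median centring the lecithin:cholesterol acyltransferase gene (-0.13 against 0.71) and the RING finger gene (-0.14 against 0.52) after P, and the dirigent gene after PHC (0.38 against -0.19), which was also 0.27 without PHC replicate 1.

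Outside the 47, peroxidases higher after P were 10 with scaled arrays and 0 to 7 with arrays left out, and lower 4 with no 2-fold limit, 3 with scaled arrays, 0 with either normexp setting and 0 to 1 with arrays left out. After HC, 5 were higher with loess, 4 with scaled arrays, 5 with both channels above background and 4 to 8 with arrays left out, and 3 were lower with loess, 2 with median centring and 8 to 11 with arrays left out. After PHC, 9 were higher with median centring, 7 with both channels above background and 11 to 14 with arrays left out, and 4 were lower with median centring and 9 to 10 with arrays left out. Dirigent-list genes higher after P were 3 with loess, median centring or both channels above background and 0 to 6 with arrays left out, and higher after HC 3 with both channels above background. Expansin-list genes higher after P were 3 with either normexp setting and 0 to 5 with arrays left out, higher after HC 2 with either, lower after HC 2 with no 2-fold limit, 1 with array weights and 0 to 1 with arrays left out, and lower after PHC 2 with no 2-fold limit, 0 with scaled arrays and 0 to 2 with arrays left out. The causes were not tested, beyond the fewer genes (32 peroxidases and 4 dirigent-list genes) that have both channels above background.

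Deviations from the treatment means correlated above 0.1 in 8 of the 9 pairs of arrays sharing a number (r = 0.00261 to 0.626) and in 3 of the 18 pairs with different numbers (r = -0.548 to 0.32). The pair under 0.1 was HC replicate 3 with PHC replicate 3. The methods describe field blocks without tying them to these numbers, so the numbers were not taken as pairs. With a replicate block each list count was as without it, such as 11 peroxidases lower after HC. The size of the HC values changed with how background was treated, and the part of dim signal in this was not tested. The remaining list counts under these settings stayed within 1.5 times.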
